A study of Homo sapiens with 18 samples.

Results

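The genes described here encode the collagens, laminins, lysyl oxidases, thrombospondins, fibrillins and fibulins of the extracellular matrix, the matrix proteins fibronectin, SPARC and biglycan, and the integrins that bind the matrix at the cell surface. They were taken by symbol: every collagen alpha chain (COL and a number, A and a number), laminin chain, integrin alpha or beta chain, LOX or LOX-like gene, thrombospondin, fibrillin and fibulin by its root name, plus BGN, DCN, FN1 and SPARC. This gave 63 of the 13992 genes in the deposited expression table. Of these, 51 had an FPKM of 0.5 or more in 3 or more libraries and were tested, among 12127 genes tested in all. FPKM is a fragment number scaled to transcript length and to library total, so it can be compared between genes. The 63 are 7 fibrillar collagens, 6 basement membrane and short-chain collagens, 9 other collagens, 10 laminins, 9 integrin alpha chains, 5 integrin beta chains, 5 lysyl oxidases, 3 thrombospondins, 6 fibrillins and fibulins, and FN1, SPARC and BGN. Another 37 protein-coding symbols of RefSeq that fit the rule are not analysed here, among them COL3A1, COL6A3, COL18A1, LAMA1, ITGAM, ITGB2 and DCN.

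The cells were HMC3, an immortalized human line labelled as microglial and wild type, kept in MEM with serum. They were exposed for 24 h to oxidized low-density lipoprotein (oxLDL), the modified lipoprotein particle that macrophages take up through scavenger receptors. The doses were 0, 1, 2.5, 10, 50 and 100 µg/ml, with 3 libraries at each dose and a single batch value for all 18 libraries, so the comparison asks how matrix and integrin transcripts differ with oxLDL dose. RNA with poly-A tails was read as paired ends, and the depths recovered from the table were 13919066 to 37382244 reads per library, where it is not known whether 1 such read is a single read or a read pair. All libraries come from 1 cell line, and no label states whether the 3 libraries at a dose were cultured apart, so p-values here reflect only the spread among the sequenced libraries, which could be technical. In RNA from whole cultures, fewer cells of a kind and less RNA per cell cannot be told apart.

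Matrix proteins are secreted, assemble outside the cell, and are held together by cross-links that lysyl oxidases make between collagen or elastin chains. Collagen chains form triple helices, laminins form heterotrimers of an alpha, a beta and a gamma chain, and fibronectin fibrils form at the cell surface when the protein is bound by integrins. Integrins are heterodimers of an alpha and a beta chain that connect this matrix to the cytoskeleton, and several of those with the alpha chain ITGAV also release latent TGF-beta. In the brain, most interstitial collagen is made by fibroblasts and pericytes of vessels and meninges rather than by microglia.

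The label was checked against markers. Among genes that mark microglia and macrophages, the defining genes AIF1, CX3CR1, P2RY12, TMEM119, ITGAM, CSF1R, PTPRC, TREM2, TYROBP, SPI1, C1QA and C1QB are not analysed here. Of 12 markers of pericytes and fibroblasts, 8 have values, among them PDGFRB, THY1 and the members COL1A1 and COL1A2, and PDGFRA, DCN, LUM and COL3A1 are not analysed here. The summed FPKM of these 8 was 525.7 to 593.5 at 100 µg/ml and 715.4 to 781.5 at 0 µg/ml, and COL1A1 alone made up most of it. Of the 7 that were tested, PDGFRB, THY1 and COL1A1 fell at 100 µg/ml and none rose. THY1 had 74.2 ± 5.26 FPKM at 100 µg/ml and 96.5 ± 2.84 FPKM at 0 µg/ml (mean ± SD, n = 3 each). For PDGFRB the means were 6.01 ± 0.525 FPKM at 100 µg/ml and 8.76 ± 0.462 FPKM at 0 µg/ml. The other 4 were not called, with log2 fold changes of -0.16 for TAGLN, -0.12 for COL1A2, 0.01 for ACTA2 and 0.07 for CSPG4. The 4 of 5 epithelial markers with values summed to 435.4 to 441.3 FPKM at 100 µg/ml and 501.3 to 514.4 FPKM at 0 µg/ml. Of the 3 that were tested, KRT18 and KRT8 fell at 100 µg/ml and none rose, and EPCAM is not analysed here. Endothelium had 1 of 5 markers in the table, summed to at most 0.0956 FPKM at 100 µg/ml and at most 0.0582 FPKM at 0 µg/ml, and the 2 of 4 astrocyte markers summed to 1.76 to 2.02 FPKM at 100 µg/ml and 1.87 to 2.13 FPKM at 0 µg/ml. The part these marker changes have in the matrix results was not tested.

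Without oxLDL, the matrix genes included some very abundant transcripts and others below 1 FPKM. Fibronectin was the most abundant member, with 662, 618 and 568 FPKM in the 3 libraries at 0 µg/ml. COL1A1, the alpha 1 chain of type I collagen, followed with 525, 476 and 486 FPKM, and SPARC, a secreted calcium-binding protein that binds collagen, had 374, 342 and 379.8 FPKM. These levels do not overlap between the 3 genes. Means at 0 µg/ml were 149 ± 3.10 FPKM for THBS1, 137 ± 10.8 FPKM for the common integrin chain ITGB1, 79.1 ± 4.87 FPKM for its partner ITGA3 and 70.2 ± 3.37 FPKM for LOXL2 (SD, n = 3 each). COL4A2, COL8A1, LAMB1 and BGN each had between 41.2 and 47.5 FPKM on average.

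Chains that assemble together were often far apart in level. COL1A2, whose product joins that of COL1A1 in type I collagen, had 0.930, 0.825 and 1.01 FPKM at 0 µg/ml, so the ratio of COL1A1 to COL1A2 FPKM was 481.3 to 577.7. By contrast COL4A2 exceeded COL4A1 only 1.62 to 1.66 times, and COL6A1 and COL6A2 stood at 1.05 to 1.06. The laminin gamma and beta chains LAMC1 and LAMB1 had 28.2 ± 0.938 and 47.5 ± 1.86 FPKM, while the only tested alpha chain, LAMA5, had 2.77 ± 0.230 FPKM. ITGB1 made up 90.8 ± 0.269% of all beta chain FPKM and ITGA3 61.2 ± 1.75% of alpha chain FPKM at 0 µg/ml. LOXL2 made up 61.5 ± 0.841% of lysyl oxidase FPKM. Ratios and shares named here were picked after the values were seen and carry no test.

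**Figure D1:**
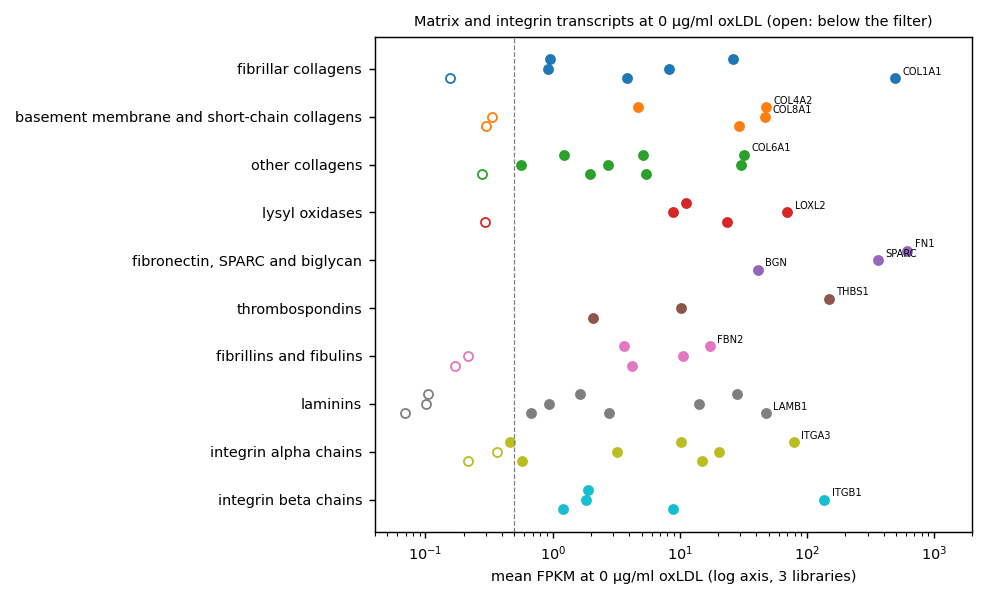
Mean FPKM of each of the 63 members at 0 µg/ml oxLDL (horizontal log axis, mean of 3 libraries), in a row for each class, with open circles for the 12 members below the expression filter and a dashed line at 0.5 FPKM. FN1, COL1A1 and SPARC lie at the right, above THBS1 and ITGB1, and every class reaches down to a few FPKM or less except FN1, SPARC and BGN.

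At 100 µg/ml the larger part of the changed members was lower. Of 51 tested members, 16 fell at 100 µg/ml against 0 µg/ml (31.4%) and 2 rose (3.92%), by limma on log2(FPKM + 0.5) with Benjamini-Hochberg adjustment over all 12127 genes and a call at an adjusted p under 0.05. Over all genes tested, 7.51% were called lower, 7.94% higher and 15.5% in either direction. The members that fell were COL1A1, COL5A1, COL5A2, COL11A1, COL9A3, FN1, SPARC, BGN, LOXL1, LOXL2, THBS1, THBS2, THBS3, FBLN2, ITGB4 and ITGB8, and those that rose were LOX and ITGB5. In each of these 18, all 3 libraries at 100 µg/ml lay on the same side of all 3 at 0 µg/ml. Such separation was seen in 28 of the 51 members, and its share over all genes was not computed. The 18 were picked by p-value, so their separation adds no support. The median log2 fold change of the 51 was -0.07, with 35 below 0, against a median of 0.00 and 51.5% below 0 over all genes. At 50 µg/ml, 12 members fell and 2 rose, against 3.69% of all genes lower, 3.78% higher and 7.47% in either direction. On the log2(FPKM + 0.5) scale, log2 fold changes of the members called at 100 µg/ml ran from -0.53 for THBS2 to 0.36 for ITGB5. The added 0.5 understates changes of genes with low FPKM and so affects this order. Mean FPKM changed by -44.7% for COL11A1, -35.9% for ITGB8 and -33.3% for COL9A3, all genes of low level.

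The counts depended on single libraries, as did the counts over all genes. The 16 falls at 100 µg/ml were 10 without the first library at 0 µg/ml, 10 without the third at 100 µg/ml, and 11 to 15 without any other library of the 2 doses. The 12 falls at 50 µg/ml were 3 without the first library at 0 µg/ml and 3 without the first at 50 µg/ml. They were 4 without the third library at 0 µg/ml, 4 without the third at 50 µg/ml, 7 without the second at 50 µg/ml and 8 without the second at 0 µg/ml. LOX and ITGB5 were called higher at both doses in every one of these fits.

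**Figure D2:**
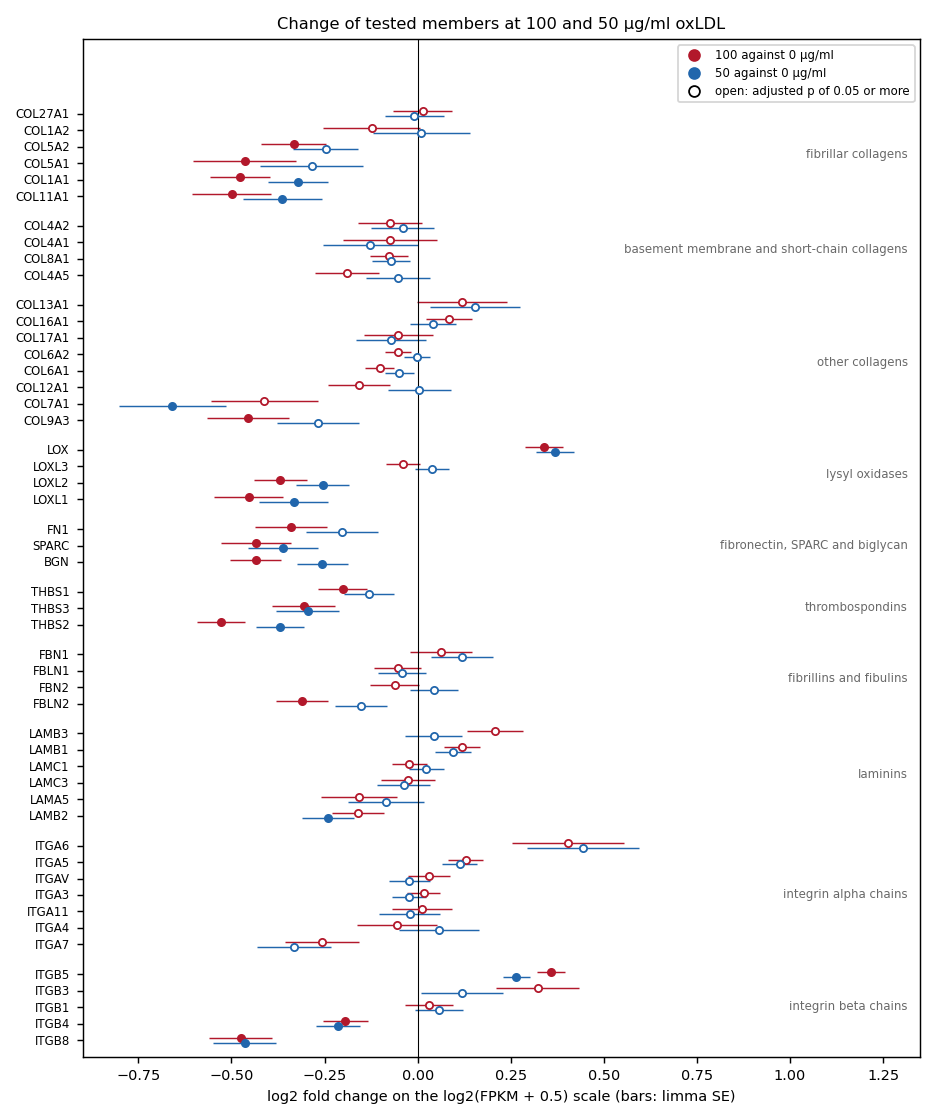
Log2 fold change of tested members at 100 µg/ml (red) and 50 µg/ml (blue) against 0 µg/ml on the log2(FPKM + 0.5) scale, with bars for the limma standard error and filled circles for an adjusted p under 0.05. Filled red circles lie left of 0 for 16 members and right of 0 for LOX and ITGB5.

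The promoters of the 4 members with the smallest adjusted p at 100 µg/ml are shown, since 2 of these genes rose and 2 fell under the same exposure. ITGB5 encodes the beta 5 chain that pairs with ITGAV, LOX the founding lysyl oxidase, THBS2 a thrombospondin that inhibits vessel growth, and BGN the proteoglycan biglycan. Each sequence is from RefSeq on GRCh38.p14 and runs 5′ to 3′ on the gene's own strand. It spans 250 bases before a single annotated start site to 50 bases after it. Any other start of these genes was not examined, and which start these cells use was not tested. The intervals are chr3:124901369-124901668 on the minus strand for ITGB5, chr5:122078210-122078509 on the minus strand for LOX, chr6:169253797-169254096 on the minus strand for THBS2 and chrX:153494730-153495029 on the plus strand for BGN. Capitals mark matches on either strand to any of 6 motifs. The general promoter motifs are the GC box GGGCGG, which factors of the SP family bind, the box with the letters CCAAT, and the TATA box with the letters TATAAA, which marks where transcription machinery assembles in some promoters. The motifs of regulated factors are the AP-1 site, spelled TGANTCA, and the SMAD element of the TGF-beta pathway, spelled CAGACA. The last is the core of the antioxidant response element that NRF2 binds, spelled TGACNNNGC. An AP-1 match can overlap a match to the antioxidant core, and in these 4 sequences no 2 matches share a base.
ITGB5: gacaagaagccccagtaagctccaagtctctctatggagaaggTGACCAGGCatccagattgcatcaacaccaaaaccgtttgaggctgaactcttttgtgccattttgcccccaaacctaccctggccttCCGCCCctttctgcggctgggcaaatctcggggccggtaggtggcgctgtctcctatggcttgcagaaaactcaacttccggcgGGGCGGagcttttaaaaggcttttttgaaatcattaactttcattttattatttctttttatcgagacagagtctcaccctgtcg
LOX: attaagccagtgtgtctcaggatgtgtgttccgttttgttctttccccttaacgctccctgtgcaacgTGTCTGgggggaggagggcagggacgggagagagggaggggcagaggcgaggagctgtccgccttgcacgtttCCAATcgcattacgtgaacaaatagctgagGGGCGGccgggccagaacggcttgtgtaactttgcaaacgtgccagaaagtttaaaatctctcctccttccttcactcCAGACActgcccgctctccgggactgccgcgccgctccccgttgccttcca
THBS2: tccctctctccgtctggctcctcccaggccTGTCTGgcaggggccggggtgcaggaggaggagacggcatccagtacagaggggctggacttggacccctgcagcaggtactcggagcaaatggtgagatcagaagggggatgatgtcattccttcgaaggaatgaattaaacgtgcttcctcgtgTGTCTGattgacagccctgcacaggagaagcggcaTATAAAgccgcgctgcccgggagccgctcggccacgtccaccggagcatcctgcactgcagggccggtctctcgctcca
BGN: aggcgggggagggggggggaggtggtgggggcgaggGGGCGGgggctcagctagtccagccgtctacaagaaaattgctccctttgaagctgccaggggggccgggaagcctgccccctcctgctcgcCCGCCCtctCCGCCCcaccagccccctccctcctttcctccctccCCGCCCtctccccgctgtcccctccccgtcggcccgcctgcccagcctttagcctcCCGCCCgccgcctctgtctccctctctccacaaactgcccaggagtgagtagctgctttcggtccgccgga

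BGN held 5 GC boxes and no other match, whereas THBS2 held none and instead had a TATA box that begins 29 bases before the start site and 2 SMAD matches at 220 and 64 bases before it. ITGB5 had GC boxes at 119 and 35 bases before its start and an antioxidant core at 207 bases. LOX had a GC box at 79 bases, a CCAAT box at 109 bases and SMAD matches at 182 bases and at 1 base before its start. Promoters were at hand for 38 of the 51 tested members, 11 of the 16 that fell and both that rose. A GC box occurred in 8 of those 11 (72.7%) and in 71.3% of the 9519 promoters of tested genes. A CCAAT box occurred in 5 of the 11 (45.5%), against 37% of all tested genes. A SMAD element, an antioxidant core and a TATA box occurred in 1 of the 11 each (9.09%), against 11.8%, 15.4% and 5.15% of all tested genes, and an AP-1 site in 0 of the 11, against 4.48%. A match is a description of letters and not of a factor bound there.

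Fibrillar collagens, which form the rope-like fibrils of connective tissue, fell in 4 of 6 tested members at 100 µg/ml, and none rose. COL1A1, on chromosome 17 from 50184101 to 50201631 (GRCh38.p14), had 361, 374 and 334 FPKM in the 3 libraries at 100 µg/ml and 525, 476 and 486 FPKM at 0 µg/ml. All 3 treated libraries were below all 3 without oxLDL, and the log2 fold change was -0.48 (SE 0.081, adjusted p = 0.000708) by limma. COL11A1, a chain of the minor type XI collagen that sets fibril width, had 0.534, 0.545 and 0.504 FPKM at 100 µg/ml and 0.945, 1.05 and 0.868 FPKM at 0 µg/ml, again without overlap, with a log2 fold change of -0.50 (SE 0.11, adjusted p = 0.00388) by limma. These levels of COL11A1 are near the pseudocount of 0.5, so the scale understates its change.

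Type V collagen, which nucleates collagen fibrils, fell in both tested chains. COL5A1 had 5.80, 6.26 and 5.42 FPKM at 100 µg/ml and 8.61, 7.66 and 8.40 FPKM at 0 µg/ml, a log2 fold change of -0.46 (SE 0.14, adjusted p = 0.0311) by limma. COL5A2 had 21.6, 22.2 and 18.4 FPKM at 100 µg/ml and 27.2, 26.4 and 24.99 FPKM at 0 µg/ml, a log2 fold change of -0.33 (SE 0.087, adjusted p = 0.0151). The groups of each chain did not overlap, but the calls rested on single libraries. The limma adjusted p of COL5A1 was 0.102 without the first library at 0 µg/ml, 0.0825 without the third at 0 µg/ml, 0.0716 without the first at 100 µg/ml and 0.112 without the third at 100 µg/ml. That of COL5A2 was 0.063 without the first library at 0 µg/ml and 0.0903 without the third at 100 µg/ml. COL1A2 and COL27A1 were not called at either dose, with log2 fold changes at 100 µg/ml of -0.12 and 0.01. The third chain of type V, COL5A3, was below the filter.

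None of the 4 tested basement membrane and short-chain collagens was called at any dose. COL4A1 and COL4A2, the chains of the type IV network beneath epithelia and vessels, lie head to head on chromosome 13 (COL4A1 from 110148963 to 110307157 on the minus strand and COL4A2 from 110307284 to 110513209 on the plus strand, GRCh38.p14). COL4A2 had 45.97, 48.1 and 41.5 FPKM at 100 µg/ml and 49.97, 46.7 and 45.8 FPKM at 0 µg/ml, and the groups overlapped. The log2 fold changes at 100 µg/ml were -0.07 (SE 0.086, adjusted p = 0.642) for COL4A2, -0.07 for COL4A1, -0.08 for COL8A1 and -0.19 for COL4A5. The median of the 4 was -0.08, against -0.40 for the 6 fibrillar collagens and 0.00 for all genes.

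Among the 8 other tested collagens, COL9A3 fell at 100 µg/ml and COL7A1 at 50 µg/ml. COL9A3, a chain of the type IX collagen of cartilage fibril surfaces, had 1.62, 1.19 and 1.10 FPKM at 100 µg/ml and 1.97, 1.91 and 1.98 FPKM at 0 µg/ml, with no overlap and a log2 fold change of -0.46 (SE 0.11, adjusted p = 0.00921) by limma. Its exons share 45 bases with TCFL5 on the opposite strand. Without the third library at 100 µg/ml its adjusted p was 0.0576. COL7A1, the anchoring fibril collagen, had 2.73, 3.19 and 3.80 FPKM at 50 µg/ml and 5.59, 5.64 and 4.90 FPKM at 0 µg/ml, the largest log2 fold change of any member at that dose at -0.66 (SE 0.14, adjusted p = 0.0103). At 100 µg/ml COL7A1 had 3.40, 4.08 and 4.31 FPKM, a log2 fold change of -0.41 (SE 0.14, adjusted p = 0.0658), and the difference between 100 and 50 µg/ml was not called (log2 fold change 0.25, SE 0.14, adjusted p = 0.692 by limma). COL6A1 and COL6A2, chains of the beaded microfilament collagen VI, were called by the test over all doses (adjusted p = 0.00728 and 0.0157 by limma) and at no single dose. Their means were highest at 2.5 µg/ml, at 34.6 ± 1.73 and 33.1 ± 0.966 FPKM, and at 100 µg/ml they were 29.8 ± 0.229 and 29.2 ± 0.834 FPKM. COL12A1, COL13A1, COL16A1 and COL17A1 were called in no comparison.

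Lysyl oxidases split in direction: LOX rose while LOXL1 and LOXL2 fell. LOX had 29.5, 29.7 and 30.2 FPKM at 100 µg/ml and 22.9, 23.4 and 24.1 FPKM at 0 µg/ml, with the lowest treated library above the highest without oxLDL. The log2 fold change of LOX was 0.34 (SE 0.051, adjusted p = 0.00022) at 100 µg/ml and 0.37 (SE 0.051, adjusted p = 0.000276) at 50 µg/ml by limma. LOXL2, which modifies collagen IV among other substrates, had 54.2, 56.6 and 51.8 FPKM at 100 µg/ml and 73.2, 66.6 and 70.7 FPKM at 0 µg/ml, a log2 fold change of -0.37 (SE 0.071, adjusted p = 0.0019). LOXL1, known for its part in elastic fibres, had 6.09, 7.06 and 5.85 FPKM at 100 µg/ml and 9.33, 8.06 and 9.17 FPKM at 0 µg/ml, a log2 fold change of -0.45 (SE 0.092, adjusted p = 0.00276). Neither falling gene overlapped between the groups. LOXL3 was called in no comparison (-0.04 at 100 µg/ml).

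The same values can be given as ratios within each library, for a pair picked for its opposite calls. The ratio of LOX to LOXL2 FPKM was 0.525 to 0.585 at 100 µg/ml and 0.313 to 0.352 at 0 µg/ml. Of all lysyl oxidase FPKM, LOX made up 29.4 ± 1.01% at 100 µg/ml, against 20.6 ± 0.975% at 0 µg/ml (mean ± SD, n = 3 each). The summed FPKM of the 5 genes was 99.3 to 104.3 at 100 µg/ml and 109.6 to 117.3 at 0 µg/ml. The kit named in the labels does not mark strand, and the exons of LOX share 138 bases with SRFBP1 and those of LOXL1 share 335 bases with LOXL1-AS1, each on the opposite strand, so reads there cannot be assigned to 1 gene. LOXL2 shares 120 exon bases with ENTPD4 on its own strand.

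Fibronectin, SPARC and biglycan all fell at 100 µg/ml. FN1 had 481, 508 and 469.9 FPKM at 100 µg/ml and 662, 618 and 568 FPKM at 0 µg/ml, and SPARC had 286, 287 and 239 FPKM at 100 µg/ml and 374, 342 and 379.8 FPKM at 0 µg/ml. BGN had 31.04, 31.4 and 28.6 FPKM at 100 µg/ml and 43.3, 38.03 and 42.2 FPKM at 0 µg/ml. In none of the 3 genes did the groups overlap, and the third library at 100 µg/ml was the lowest in each. The log2 fold changes by limma were -0.34 (SE 0.097, adjusted p = 0.0239) for FN1, -0.43 (SE 0.095, adjusted p = 0.00476) for SPARC and -0.43 (SE 0.069, adjusted p = 0.00039) for BGN. The call of FN1 rested on single libraries, with an adjusted p of 0.11 without the first library at 0 µg/ml, 0.0627 without the second at 0 µg/ml, 0.0639 without the first at 100 µg/ml and 0.0865 without the third at 100 µg/ml. The summed FPKM of the 3 genes was 737.8 to 826.5 at 100 µg/ml and 990.5 to 1079 at 0 µg/ml. The sum of all 63 members was 1946 to 2115 FPKM at 100 µg/ml and 2378 to 2567 FPKM at 0 µg/ml, or 0.503 ± 0.0212% and 0.606 ± 0.0311% of the FPKM of all listed genes.

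All 3 thrombospondins fell at 100 µg/ml. Of these matricellular glycoproteins, THBS1 and THBS2 bind CD36 at the cell surface, and CD36 is also a receptor for oxLDL. THBS2 had 7.13, 7.12 and 6.53 FPKM at 100 µg/ml and 10.5, 10.1 and 9.99 FPKM at 0 µg/ml, the clearest fall of any member, with a log2 fold change of -0.53 (SE 0.064, adjusted p = 3.09e-05) by limma, and -0.37 (SE 0.064, adjusted p = 0.00213) at 50 µg/ml. THBS3 had 1.41, 1.71 and 1.63 FPKM at 100 µg/ml and 2.09, 2.09 and 2.02 FPKM at 0 µg/ml, a log2 fold change of -0.31 (SE 0.085, adjusted p = 0.0208). THBS1, by far the most abundant of the 3, had 134, 137 and 118 FPKM at 100 µg/ml and 152, 149 and 145 FPKM at 0 µg/ml, a log2 fold change of -0.20 (SE 0.066, adjusted p = 0.0499). The groups of THBS2, THBS3 and THBS1 did not overlap.

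The calls of THBS1 and THBS3 were close to the threshold. For THBS1 the limma adjusted p was 0.144, 0.108 and 0.079 without the first, the second and the third library at 0 µg/ml, 0.0605 without the first at 100 µg/ml and 0.244 without the third at 100 µg/ml. It was also 0.0504 with a pseudocount of 0.1 and 0.0586 with no filter. For THBS3 it was 0.0655 without the first library at 0 µg/ml, 0.0596 without the second and 0.0965 without the first at 100 µg/ml. The ratio of THBS1 to THBS2 FPKM was 18.03 to 19.2 at 100 µg/ml and 14.4 to 14.7 at 0 µg/ml. Exons of THBS1 share 448 bases with FSIP1 and those of THBS3 share 146 bases with MTX1, on the opposite strands.

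Of the 4 tested fibrillins and fibulins, FBLN2 fell and the others were called in no comparison. FBLN2, a fibulin of basement membranes and elastic fibres, had 3.41, 3.59 and 2.85 FPKM at 100 µg/ml and 4.27, 4.40 and 3.85 FPKM at 0 µg/ml, without overlap. Its log2 fold change was -0.31 (SE 0.07, adjusted p = 0.00575) by limma at 100 µg/ml and -0.15 (SE 0.07, adjusted p = 0.211) at 50 µg/ml, where it was not called. FBN2, the most abundant of the class, had 15.8, 16.4 and 16.9 FPKM at 100 µg/ml and 17.5, 18.3 and 15.7 FPKM at 0 µg/ml, with overlapping groups and a log2 fold change of -0.06 (SE 0.066, adjusted p = 0.607). For FBN1 and FBLN1 the log2 fold changes at 100 µg/ml were 0.06 and -0.05.

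No laminin was called at 100 µg/ml, and the summed FPKM of the class overlapped between the doses, at 95.8 to 99.7 at 100 µg/ml and 91.9 to 98.9 at 0 µg/ml. LAMB2, the beta chain of synaptic and vascular basement membranes, fell at 50 µg/ml, with 11, 11.9 and 12.8 FPKM at 50 µg/ml and 14.3, 14.97 and 13.2 FPKM at 0 µg/ml and a log2 fold change of -0.24 (SE 0.07, adjusted p = 0.0452) by limma. At 100 µg/ml its log2 fold change was -0.16 (SE 0.07, adjusted p = 0.145), and the difference between 100 and 50 µg/ml was not called (adjusted p = 0.835). LAMB1, the most abundant laminin, had 50.0, 52.1 and 52.8 FPKM at 100 µg/ml and 47.7, 49.3 and 45.6 FPKM at 0 µg/ml. It was not called at that dose (log2 fold change 0.12, SE 0.048, adjusted p = 0.111) but rose with dose over all 18 libraries (adjusted p = 0.00598). The ratio of LAMB1 to LAMB2 was 4.02 to 4.25 at 100 µg/ml and 3.29 to 3.46 at 0 µg/ml.

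LAMB3, a chain of the epithelial laminin that anchors hemidesmosomes, was called over all doses (limma adjusted p = 0.0139). Its mean was lowest at 10 µg/ml, with 1.38, 1.28 and 1.33 FPKM, and highest at 100 µg/ml, with 2.22, 1.91 and 1.78 FPKM, where the comparison with 0 µg/ml was not called (log2 fold change 0.21, SE 0.076, adjusted p = 0.0793). LAMA5, LAMC1 and LAMC3 were called in no comparison, with log2 fold changes at 100 µg/ml of -0.16, -0.02 and -0.03. The exons of LAMB1 share 70 bases with DLD and those of LAMA5 share 244 bases with ADRM1, on the opposite strands.

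**Figure D3:**
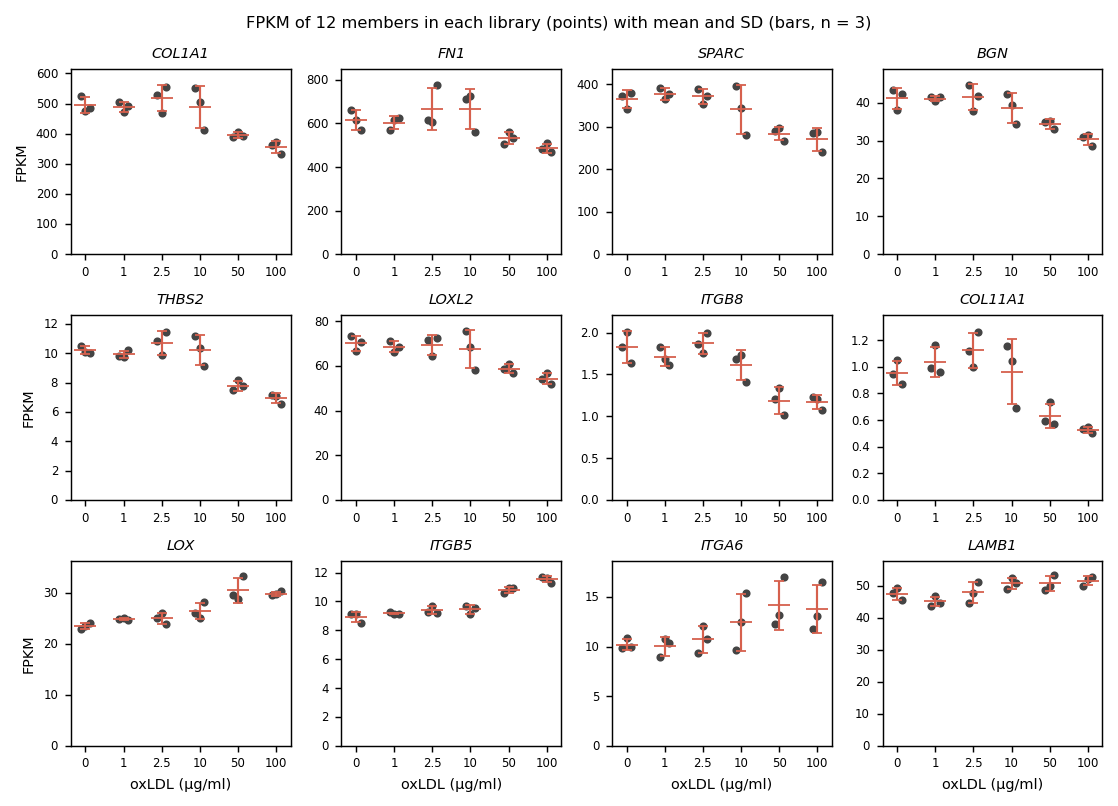
FPKM of 12 members in each library (grey points), with the mean and SD of the 3 libraries at each dose (red), against oxLDL dose in µg/ml. The first 8 panels show genes that fell at 100 µg/ml, LOX and ITGB5 rose, and ITGA6 and LAMB1 rose with dose over all libraries without a call at 100 µg/ml.

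Integrin beta chains changed in both directions, and the most abundant was not called. ITGB5 had 11.7, 11.7 and 11.3 FPKM at 100 µg/ml and 9.12, 9.13 and 8.49 FPKM at 0 µg/ml. It had the smallest adjusted p of all members at 100 µg/ml, with a log2 fold change of 0.36 (SE 0.037, adjusted p = 6.13e-06) by limma, and 0.27 (SE 0.037, adjusted p = 0.000347) at 50 µg/ml. ITGB8, which also pairs with ITGAV and is a known activator of latent TGF-beta in the brain, had 1.23, 1.21 and 1.08 FPKM at 100 µg/ml and 1.83, 2.01 and 1.64 FPKM at 0 µg/ml. Its log2 fold change was -0.48 (SE 0.085, adjusted p = 0.00101) at 100 µg/ml and -0.46 (SE 0.085, adjusted p = 0.00288) at 50 µg/ml. Neither gene overlapped between the groups, and the ratio of ITGB5 to ITGB8 FPKM was 9.56 to 10.5 at 100 µg/ml, against 4.54 to 5.2 at 0 µg/ml. Their common partner ITGAV had 15.2, 15.1 and 15.02 FPKM at 100 µg/ml and 14.6, 15.9 and 14.01 FPKM at 0 µg/ml, overlapping groups with a log2 fold change of 0.03.

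ITGB4, the hemidesmosome chain that pairs with ITGA6, fell. It had 0.981, 1.03 and 0.980 FPKM at 100 µg/ml and 1.24, 1.25 and 1.16 FPKM at 0 µg/ml, a log2 fold change of -0.19 (SE 0.06, adjusted p = 0.0362) by limma. Its adjusted p was 0.109 without the first library at 0 µg/ml, 0.107 without the second, 0.0919, 0.0566 and 0.103 without the first, the second and the third at 100 µg/ml, and 0.0977 when only the 2 doses were fitted. ITGB3, another partner of ITGAV, had 2.53, 2.87 and 2.18 FPKM at 100 µg/ml and 2.06, 1.88 and 1.79 FPKM at 0 µg/ml. It lay just outside the threshold at 100 µg/ml (log2 fold change 0.32, SE 0.11, adjusted p = 0.0605) and was called rising with dose (adjusted p = 0.0394). That slope call was lost when any 1 of 8 libraries was left out: the second or the third at 0 µg/ml, the first or the second at 1 µg/ml, the first at 2.5 µg/ml, the second at 50 µg/ml, and the first or the second at 100 µg/ml. In 7 of these fits 5 members rose, and without the first at 100 µg/ml 6 rose, with COL13A1 added. ITGB1 had 134, 138 and 147 FPKM at 100 µg/ml and 141, 145 and 125 FPKM at 0 µg/ml, with a log2 fold change of 0.03 (SE 0.065, adjusted p = 0.814).

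No integrin alpha chain was called at 100 or 50 µg/ml. ITGA6, a laminin-binding chain, had 11.8, 13.1 and 16.5 FPKM at 100 µg/ml and 9.84, 10.8 and 9.91 FPKM at 0 µg/ml. Every treated library was above every library without oxLDL, but the treated libraries spread widely, and the log2 fold change of 0.40 (SE 0.15, adjusted p = 0.0836) did not pass. ITGA5, which with ITGB1 forms the main fibronectin receptor, had 22.1, 22.7 and 21.5 FPKM at 100 µg/ml and 20.6, 20.2 and 19.8 FPKM at 0 µg/ml, a log2 fold change of 0.13 (SE 0.047, adjusted p = 0.0757). Both rose with dose over the 18 libraries, by limma adjusted p of 0.00214 for ITGA6 and 0.00302 for ITGA5. ITGA7, a laminin-binding chain of muscle, fell with dose (adjusted p = 0.0119) and had a log2 fold change of -0.26 (SE 0.1, adjusted p = 0.0973) at 100 µg/ml and -0.33 (SE 0.1, adjusted p = 0.0531) at 50 µg/ml.

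ITGA3, the alpha chain of highest level, had 76.8, 82.01 and 80.98 FPKM at 100 µg/ml and 84.8, 76.5 and 76.2 FPKM at 0 µg/ml, with a log2 fold change of 0.02 (SE 0.045, adjusted p = 0.869) and overlapping groups. ITGA4 and ITGA11, both near the filter, had log2 fold changes of -0.06 and 0.01. The ratio of FN1 to ITGA5 FPKM was 21.7 to 22.4 at 100 µg/ml and 28.7 to 32.2 at 0 µg/ml. ITGA7 shares 7 exon bases with BLOC1S1 and ITGB1 shares 42 with ITGB1-DT, on the opposite strands.

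**Figure D4:**
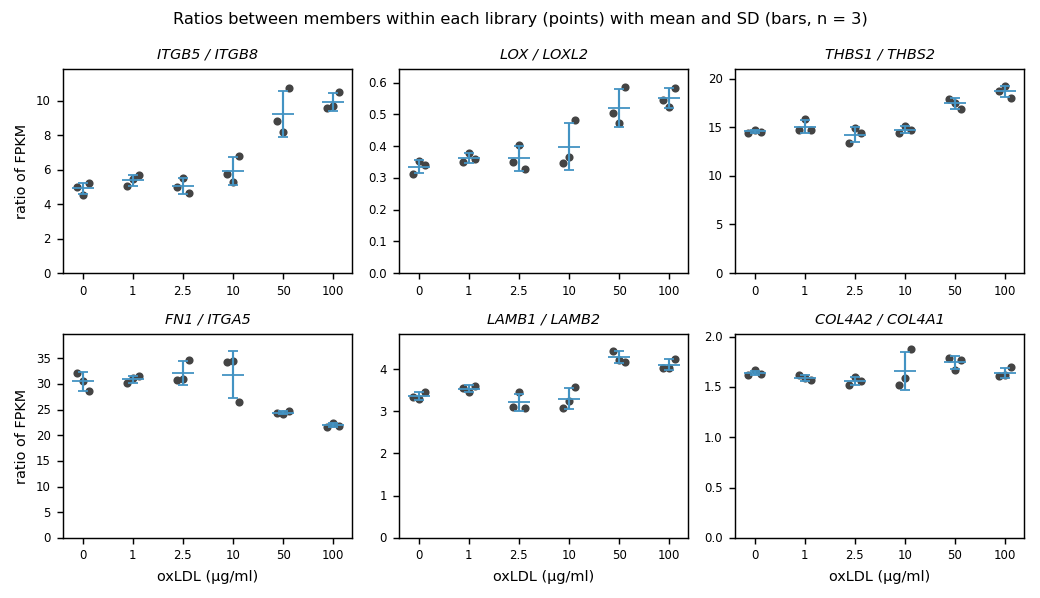
Ratio of FPKM between 2 members within each library (grey points), with mean and SD of the 3 libraries at each dose (blue), against oxLDL dose in µg/ml. ITGB5 to ITGB8 and LOX to LOXL2 are higher at 50 and 100 µg/ml, FN1 to ITGA5 is lower, and COL4A2 to COL4A1 has a mean of 1.64 at 100 µg/ml and 1.64 at 0 µg/ml.

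The 12 members below the filter were COL4A6, COL5A3, COL8A2, COL9A2, FBLN5, FBLN7, ITGA1, ITGA2, LAMA2, LAMA3, LAMA4 and LOXL4. They were not tested in the comparisons above, and their mean FPKM over all libraries ran from 0.0785 for LAMA4 to 0.388 for ITGA1. COL9A2, which pairs with COL9A3 in type IX collagen, had 0.114, 0.125 and 0.0420 FPKM at 100 µg/ml and 0.284, 0.281 and 0.262 FPKM at 0 µg/ml. LOXL4 had 0.176, 0.175 and 0.0970 FPKM at 100 µg/ml and 0.285, 0.333 and 0.266 FPKM at 0 µg/ml. Both were called lower at 100 and 50 µg/ml when no filter was applied, in fits that called 1875 and 868 of all genes. In the third library at 100 µg/ml COL9A2 had only 2 recovered reads and LOXL4 only 6, and both lay below the pseudocount of 0.5. ITGA2, a collagen-binding integrin chain, had 0.212, 0.319 and 0.474 FPKM at 100 µg/ml and 0.216, 0.197 and 0.232 FPKM at 0 µg/ml, with overlapping groups, and was called rising with dose without the filter. ITGA1 shares 475 exon bases with PELO on its own strand.

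At the lower doses no member was called. At 10 µg/ml the smallest adjusted p of a member was 0.483 for LOX by limma, with 5 members at an unadjusted p under 0.05, against 9.77% of all genes, and 5 of all genes (0.0412%) were called. At 2.5 µg/ml 2 members and at 1 µg/ml 1 member had an unadjusted p under 0.05, against 531 and 365 of all genes (4.38% and 3.01%), and 0% of all genes were called at either dose. LOX had 26.1, 24.96 and 28.1 FPKM at 10 µg/ml and 22.9, 23.4 and 24.1 FPKM at 0 µg/ml, a log2 fold change of 0.16 (SE 0.051, adjusted p = 0.483). Medians of the 51 members were -0.02, 0.06 and 0.05 at 1, 2.5 and 10 µg/ml, and -0.04 and -0.07 at 50 and 100 µg/ml. The log2 fold change was below 0 in 32, 9, 15, 33 and 35 of the 51 members, from the lowest dose to the highest. Over all genes the shares below 0 at these doses were 53.4%, 42.7%, 42.2%, 48.2% and 51.5%. Most members thus had values above 0 at 2.5 and 10 µg/ml, where none was called. The third library at 10 µg/ml stood apart for several matrix genes: its fibrillar collagen sum was 447 FPKM, against 597.8 and 547 FPKM in the first and second. In it COL5A1 was 5.99 FPKM against 10.7 and 9.01 FPKM, and SPARC 281 FPKM against 396 and 345 FPKM. Fitted without that library, 16 members were lower and 3 higher at 100 µg/ml, the added one being ITGB3, and 13 were lower and 2 higher at 50 µg/ml, the added one being COL5A2. Over all genes that fit called 1952 at 100 µg/ml and 1027 at 50 µg/ml, against 1874 and 906 with it.

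Of the 12 members called lower at 50 µg/ml, BGN, COL11A1, COL1A1, ITGB4, ITGB8, LOXL1, LOXL2, SPARC, THBS2 and THBS3 were also called lower at 100 µg/ml, while COL7A1 and LAMB2 were not. COL5A1, COL5A2, COL9A3, FBLN2, FN1 and THBS1 were called at 100 µg/ml and not at 50 µg/ml. None of the 51 differed between 100 and 50 µg/ml by limma, where 5 had an unadjusted p under 0.05, against 8.33% of all genes, and 0.28% of all genes were called. Both doses were compared with the same 3 libraries at 0 µg/ml. The calls of COL7A1, ITGB8, THBS2, LOX and ITGB5 at 50 µg/ml held without any single library of the 2 doses.

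The other 9 calls at 50 µg/ml, with log2 fold changes from -0.36 for SPARC to -0.21 for ITGB4, rested on single libraries. Without the first library at 0 µg/ml the limma adjusted p was 0.134 for BGN, 0.117 for COL11A1, 0.104 for COL1A1, 0.12 for ITGB4, 0.129 for LAMB2, 0.135 for LOXL1, 0.142 for LOXL2, 0.097 for SPARC and 0.123 for THBS3. Without the first at 50 µg/ml the same 9 had 0.0601, 0.117, 0.0646, 0.0875, 0.153, 0.0608, 0.0868, 0.0567 and 0.104. Without the third at 0 µg/ml BGN, COL11A1, COL1A1, ITGB4, LOXL1, LOXL2, SPARC and THBS3 had 0.11, 0.0707, 0.0565, 0.0636, 0.122, 0.105, 0.102 and 0.0886, and without the third at 50 µg/ml 0.133, 0.169, 0.0779, 0.102, 0.13, 0.141, 0.126 and 0.166. Without the second at 50 µg/ml it was 0.0638 for BGN, 0.0899 for ITGB4, 0.103 for LAMB2, 0.0888 for LOXL1 and 0.0582 for LOXL2. Without the second at 0 µg/ml it was 0.143 for COL11A1, 0.107 for ITGB4, 0.15 for LAMB2 and 0.1 for THBS3.

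A slope on log2(dose + 1) over all 18 libraries called 24 members, 18 falling and 6 rising, against 12.6% of all genes falling, 13% rising and 25.6% in either direction. The 18 were the 16 that fell at 100 µg/ml with COL7A1 and ITGA7. The 6 were LOX, ITGB5, ITGA5, ITGA6, ITGB3 and LAMB1. The steepest fall was that of COL11A1, at -0.0880 (SE 0.015, adjusted p = 0.000239) log2 units per unit of log2(dose + 1), and the steepest rise that of ITGA6, at 0.0752 (SE 0.017, adjusted p = 0.00214). The test over all doses called 23 members, against 15.4% of all genes. COL6A1, COL6A2, LAMB1 and LAMB3 were among these 23 without a call at 50 or 100 µg/ml. Members called in none of these comparisons included COL12A1, COL13A1, COL16A1, COL17A1, COL1A2, COL27A1, COL4A1, COL4A2, COL4A5, COL8A1, FBLN1, FBN1, FBN2, ITGA11, ITGA3, ITGA4, ITGAV, ITGB1, LAMA5, LAMC1, LAMC3 and LOXL3.

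**Figure D5:**
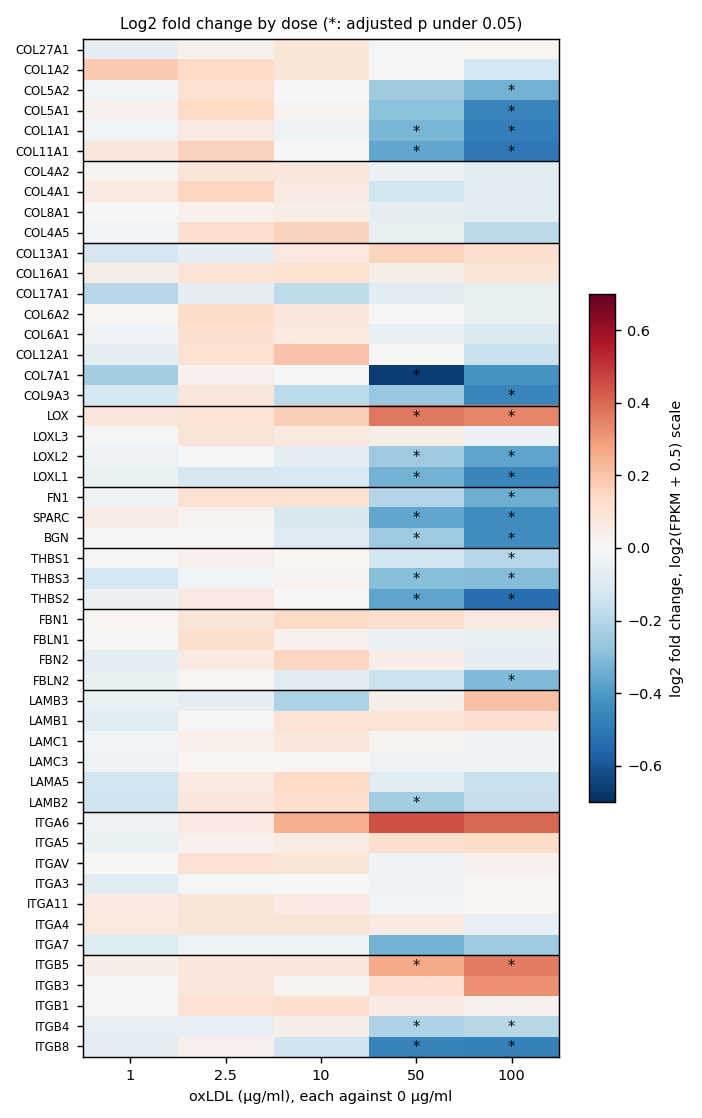
Log2 fold change of tested members (down the page, grouped by class) at 1, 2.5, 10, 50 and 100 µg/ml, each against 0 µg/ml, on the log2(FPKM + 0.5) scale, with an asterisk for an adjusted p under 0.05. Asterisks stand in the columns of 50 µg/ml (14 members) and 100 µg/ml (18 members) and in no column of a lower dose.

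Members on either side of the threshold at 100 µg/ml had changes of overlapping size, but those inside were all falls. Inside it, with an adjusted p of 0.01 or more, were COL5A2, THBS3, FN1, COL5A1, ITGB4 and THBS1, with log2 fold changes from -0.46 to -0.19. Outside it, with an adjusted p up to 0.1, were members of both directions. COL7A1, ITGA7 and COL6A1 had log2 fold changes of -0.41, -0.26 and -0.10, and ITGA6, ITGB3, LAMB3 and ITGA5 had 0.40, 0.32, 0.21 and 0.13. COL6A1 had 30.01, 29.8 and 29.6 FPKM at 100 µg/ml and 32.9, 31.6 and 31.6 FPKM at 0 µg/ml, without overlap, and a log2 fold change of -0.10 (SE 0.039, adjusted p = 0.0893) by limma. All 13 had libraries at 100 µg/ml that did not overlap those at 0 µg/ml, but they were picked by adjusted p. The share of all genes without overlap was not computed.

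Of 27 tested genes of collagen biosynthesis and procollagen processing, 4 rose (14.8%) and 1 fell (3.7%) at 100 µg/ml, against 7.94% and 7.51% of all genes, with a median log2 fold change of -0.01. CREB3L1, a transcription factor of the endoplasmic reticulum known to induce collagen genes, had 19.98 ± 0.850 FPKM at 100 µg/ml and 27.6 ± 0.852 FPKM at 0 µg/ml with a log2 fold change of -0.46 (SE 0.057, adjusted p = 3.6e-05) by limma. TMEM38B, an endoplasmic reticulum channel needed for collagen processing, rose, at 0.27 (SE 0.06, adjusted p = 0.00538), as did the lysyl hydroxylase PLOD3, at 0.12 (SE 0.033, adjusted p = 0.0209). The other 2 that rose, named after their values were seen, were PCOLCE2, an enhancer of procollagen cleavage (log2 fold change 0.40, SE 0.11, adjusted p = 0.0214), and the lysyl hydroxylase PLOD2 (log2 fold change 0.14, SE 0.043, adjusted p = 0.0332). The 4 rises were 2 without the first library at 0 µg/ml, 2 without the third at 0 µg/ml, 2 without the second at 100 µg/ml and 1 without the third at 100 µg/ml. In place of 1 fall there were 2 without the second at 100 µg/ml and 2 without the third at 10 µg/ml.

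Other basement membrane genes moved both ways, with 2 of 9 tested called higher (22.2%) and 3 lower (33.3%), against 7.94% and 7.51% of all genes, and a median of 0.00. TINAGL1 and the calcium-binding SMOC1 changed most: TINAGL1 had 16.8 ± 1.34 FPKM at 100 µg/ml and 37.4 ± 0.717 FPKM at 0 µg/ml, and SMOC1 had 3.58 ± 0.106 FPKM at 100 µg/ml and 1.39 ± 0.0807 FPKM at 0 µg/ml. Their log2 fold changes were -1.13 (SE 0.051, adjusted p = 1.36e-10) and 1.11 (SE 0.082, adjusted p = 7.65e-08) by limma. AGRN, the proteoglycan agrin, fell, at -0.29 (SE 0.059, adjusted p = 0.00272). DAG1 also fell and NID2 rose, both named after their values were seen. Of 6 other elastic fibre genes, 1 rose (16.7%) and 2 fell (33.3%). EFEMP1 (fibulin-3) rose, with a log2 fold change of 0.57 (SE 0.046, adjusted p = 2.63e-07) by limma. LTBP3, which binds latent TGF-beta, fell, at -0.52 (SE 0.081, adjusted p = 0.00031), as did EFEMP2 (fibulin-4), at -0.26 (SE 0.057, adjusted p = 0.00517), and the list median was -0.09.

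In the remaining lists every call at 100 µg/ml was a fall, and their counts stand against 7.51% of all genes called lower. Of 7 other matricellular proteins and proteoglycans, 3 fell (42.9%), with a list median of -0.18. These were MATN2, at -0.45 (SE 0.077, adjusted p = 0.000706), VCAN, the large proteoglycan versican, at -0.43 (SE 0.078, adjusted p = 0.00113), and TGFBI, at -0.19 (SE 0.062, adjusted p = 0.0473). Of 21 integrin adaptors and focal adhesion genes 4 fell (19.0%), with a median of -0.08. Among them were CAV1, the caveolar protein caveolin-1, at -0.29 (SE 0.04, adjusted p = 0.000119), KANK2, an adaptor of talin, at -0.37 (SE 0.054, adjusted p = 0.000214), and TNS3, a tensin that binds integrin tails, at -0.66 (SE 0.1, adjusted p = 0.00025). The fourth was LIMS2. Of 19 ligands, receptors and SMADs of TGF-beta, the growth factor known for inducing matrix genes, 6 fell (31.6%), with a median of -0.07. SMAD3, which carries the signal to the nucleus, had 5.92 ± 0.403 FPKM at 100 µg/ml and 9.78 ± 0.256 FPKM at 0 µg/ml with a log2 fold change of -0.68 (SE 0.082, adjusted p = 2.83e-05) by limma. The co-repressor SKIL fell, at -0.28 (SE 0.047, adjusted p = 0.000596), and TGFB2, SMAD6, SMAD7 and LTBP3, which is in 2 lists, also fell. No TGF-beta list gene was called higher. The list mixes genes that carry the signal with genes that repress it, and the level of signalling was not tested.

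The 51 members have a median transcript length of 5955 bases, against 3901 for all tested genes, and the sum of FPKM, which is lower in a library with more reads from long transcripts, was 400185 to 412571 at 0 µg/ml, 386396 to 404283 at 2.5 µg/ml and 402072 to 408088 at 100 µg/ml. With the log2 of this sum as a covariate, 23 members were lower and 4 higher at 100 µg/ml and 16 lower and 2 higher at 50 µg/ml by limma, and all 18 calls at 100 µg/ml were kept. Calls over all genes also rose, from 1874 to 2564 at 100 µg/ml and from 906 to 1285 at 50 µg/ml. The part of this property in the falls was not tested further. In the main fit, the members called at 100 or 50 µg/ml with the fewest recovered reads in a library were COL9A3, with 48, and COL11A1, with 66. Counting error is thus a larger share of the spread for these 2 than for the abundant members.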

How the data were processed

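Gene expression was measured by poly-A RNA-seq in 18 libraries of HMC3 cells, 3 at each of 6 oxLDL doses. The authors deposited FPKM values per gene. HISAT2 2.0.5, hg38, featureCounts and DESeq2 appear in the submitters' processing notes, and the annotation release is not given in the sources used here. The deposited FPKM values were whole multiples of what 1 read is worth for 100% of genes within 0.05 reads, which gave back the reads of each library; limma-voom on those reads called 2006 genes at 100 µg/ml. Dividing by a library total means that a large change in a few genes can shift all others.

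Genes with an FPKM of at least 0.5 in at least 3 libraries were kept (12127 of 13992), and log2(FPKM + 0.5) was fitted with limma 3.58.1 in R 4.3.3, with 1 coefficient per dose, a variance trend with mean level and 12 residual degrees of freedom. The test was also run on simulated data, with the same spread setting for every gene and changes larger than most called here. That run therefore gives no support to the calls of these members. P-values were adjusted over all tested genes within each comparison by the Benjamini-Hochberg method, with calls under 0.05. The unit of the files, FPKM, matched the planned test. Members and lists were chosen with earlier results of these data known.

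Values were given for every called member, the highest member of each class, those within 0.01 to 0.1 of adjusted p, and up to 3 called genes of each other list. Alternatives changed the pseudocount, filter, scaling, block, doses fitted and single libraries, and used limma-voom on recovered reads. Protein sequences and exact transcript lengths of the authors' annotation were not used here. Some genes are not reported here.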

Additional observations from a re-analysis of the deposited data

How the results depend on the processing

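No log2 fold change of a called member changed sign in any alternative: 433 such values kept their side of the threshold and 79 lost the call. In 16 settings each, 11 of the 18 calls at 100 µg/ml and 5 of the 14 at 50 µg/ml held throughout. The 2 members called higher at 100 µg/ml were 6 with limma-voom on recovered reads (ITGA5, ITGA6, ITGB3 and LAMB3 added), 4 when only the doses compared were fitted, and 4 with the FPKM sum as a covariate, an alternative chosen after seeing the data. In that order, calls over all genes in either direction were 2006, 1577 and 2564, against 1874 in the main fit. Leaving out 1 library gave 10 to 16 lower and 2 to 3 higher at 100 µg/ml, 3 to 13 lower at 50 µg/ml, 18 falling and 5 to 6 rising with dose, and 17 to 26 over all doses. Over all genes such fits called 1204 to 1952 at 100 µg/ml and 458 to 1027 at 50 µg/ml. Counts at 1, 2.5 and 10 µg/ml and between 100 and 50 µg/ml were 0 in each alternative. Of the collagen biosynthesis list, the 1 fall at 100 µg/ml was 2 without a filter, 2 with limma-voom, 2 with the covariate and 2 with only the doses compared, and 1 to 2 without single libraries, where the rises were 1 to 4. The causes were not tested.

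Replicate numbers did not pair the libraries: over 45 pairs with the same number the correlation of deviations was -0.333 to 0.245 (median 0.011), 10 were over 0.1, and 5 of 18 libraries correlated best with their own number. With the replicate block, 16 members were lower and 4 higher at 100 µg/ml, with ITGA6 and ITGB3 added, and 10 lower and 3 higher at 50 µg/ml, where THBS3 and LAMB2 were lost and ITGA6 was gained. Depth limits the least abundant members most, and the 12 below the filter were not tested.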
